A study of Mus musculus with 6 samples.

Results

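Sphingosine 1-phosphate (S1P) is a lipid signal that cells make, export, sense and destroy, and 7 genes of this system were followed in mouse heart cells after myocardial infarction (MI). They were chosen by gene symbol from the 17714 genes of the expression table and comprise the receptor genes S1pr1, S1pr2 and S1pr3, the kinase genes Sphk1 and Sphk2, the exporter gene Spns2 and the lyase gene Sgpl1. All 7 were found and all 7 passed the filter on low counts. RNA was sequenced from 3 MI and 3 sham-operated libraries, all labelled wild type, day 3 and lymphatic endothelial cells of the heart. The labels give no sorting step, mention both cardiac tissue and primary endothelial cells without saying which was used, name a serum-containing culture medium, and give neither the strain nor the age of the mice. Separate animals are not stated as the source of the libraries, and all p-values therefore speak only of library-to-library spread, which may be technical.

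S1P is made inside cells when a sphingosine kinase phosphorylates sphingosine. Endothelial cells release it through the exporter SPNS2, and in lymph much of it comes from lymphatic endothelium. Outside the cell it acts on G protein-coupled receptors. S1PR1 tightens endothelial junctions and draws lymphocytes out of tissues, S1PR2 restrains migration, and S1PR3 couples to several classes of G protein. Phosphatases can turn S1P back into sphingosine, whereas S1P lyase, encoded by Sgpl1, cleaves it irreversibly in the endoplasmic reticulum.

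The upstream sequences of 4 members are shown because each had a single window in the set of RefSeq upstream sequences used. Together they hold 2 genes that rose and 2 that fell. Each is the stretch of 250 bases before the start site on GRCm38.p6, read 5′ to 3′ on the gene's strand. Capitals mark matches to CCNCNCCC on either strand, a core of KLF and SP family sites, which was searched because the transcription factor KLF2 is known to drive S1pr1 in lymphocytes and endothelium. The set held no window for S1pr1 itself, so S1pr1 was not searched. Motifs of AP-1, NF-kB, HIF and ETS factors were searched as well and are not marked.
S1pr2 (chr9:20976794-20977043, minus strand): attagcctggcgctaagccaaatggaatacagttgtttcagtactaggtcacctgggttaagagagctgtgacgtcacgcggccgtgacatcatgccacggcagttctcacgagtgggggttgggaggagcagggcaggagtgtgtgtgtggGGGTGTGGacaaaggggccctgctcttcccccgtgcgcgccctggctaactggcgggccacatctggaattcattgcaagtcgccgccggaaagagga
S1pr3 (chr13:51408368-51408617, plus strand): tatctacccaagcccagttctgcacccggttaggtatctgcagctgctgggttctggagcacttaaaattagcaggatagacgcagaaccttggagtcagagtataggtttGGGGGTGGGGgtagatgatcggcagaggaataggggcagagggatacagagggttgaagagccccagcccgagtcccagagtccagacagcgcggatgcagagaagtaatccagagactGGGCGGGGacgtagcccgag
Sgpl1 (chr10:61147685-61147934, minus strand): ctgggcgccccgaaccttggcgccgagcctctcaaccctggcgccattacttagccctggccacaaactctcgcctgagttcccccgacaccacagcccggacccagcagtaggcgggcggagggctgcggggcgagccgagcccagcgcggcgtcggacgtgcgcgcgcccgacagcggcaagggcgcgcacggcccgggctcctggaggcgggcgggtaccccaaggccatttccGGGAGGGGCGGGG
Spns2 (chr11:72475028-72475277, minus strand): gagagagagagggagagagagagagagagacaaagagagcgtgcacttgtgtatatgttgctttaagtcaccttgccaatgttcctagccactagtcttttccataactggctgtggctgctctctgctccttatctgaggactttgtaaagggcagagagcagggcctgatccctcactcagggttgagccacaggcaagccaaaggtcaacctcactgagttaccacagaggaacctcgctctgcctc
S1pr2 held 1 match, S1pr3 held 3 of which 2 overlap, Sgpl1 held 2 that overlap each other next to the start, and Spns2 held 0. Such a match is present in 45.9% of 32851 upstream windows of this length, so its presence in a rising and in a falling gene sets neither apart. The Sgpl1 window was 74.8% G and C with 31 CpG pairs and the Spns2 window was 51.6% with 2, against a median of 52.4% over all windows. The Spns2 window lies before a start inside the annotated gene, which runs to 72489976 on the minus strand. Its G and C content therefore need not be that of the sequence before the outer end of the gene.

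The MI libraries held 21154200 to 21689212 estimated counts and the sham libraries 3206373 to 3591135, so depth followed the group. Operation and any undeclared library batch cannot be told apart in this design. MI 1 differed most from its group, by a chi-square per gene of 35.3 and 21.3 against the other MI libraries, which differed from each other by 4.14. Between sham libraries the value was 1.54 to 1.77, and no pair was counted as a repeat deposit. The measure uses raw counts and grows with depth, so its values in MI and in sham cannot be compared as spread. Marker transcripts of several cell types moved with the group. All 18 pan-endothelial genes tested fell (median log2 fold change -2.11, summed level 1430 to 1460 TPM in MI and 7480 to 7600 TPM in sham), where TPM is the authors' abundance unit, which corrects for transcript length and library total. Of 15 macrophage and monocyte genes, 14 rose and 1 fell (median 2.69, summed 23200 to 23600 TPM in MI and 4750 to 5020 TPM in sham), and no gene of these 2 lists was at 0 in a group. Of 10 lymphatic markers 9 fell and 1, Pdpn, rose (median -2.52), with none at 0 in a group. Their summed level was 256 to 268 TPM in MI and 531 to 553 TPM in sham. Pdpn alone averaged 190 TPM in MI and 5.23 TPM in sham, so it made up most of the MI sum. All 9 cardiomyocyte genes fell (median -4.27, summed 177 to 213 TPM in MI and 4720 to 4780 TPM in sham), and so did all 5 red blood cell genes tested (median -4.49, 198 to 254 TPM in MI and 5860 to 6110 TPM in sham; Slc4a1 was at 0 in sham). All 10 mural genes fell as well (median -1.59, 505 to 531 TPM in MI and 2050 to 2080 TPM in sham). Neutrophil genes rose in 8 cases out of 9 (median 3.92, 1750 to 2140 TPM in MI and 91.6 to 118 TPM in sham, where Ngp was at 0). Of 9 fibroblast genes 4 rose and 5 fell (median -1.73, 802 to 938 TPM in MI and 1170 to 1230 TPM in sham). Of 4 platelet genes tested 2 rose and none fell (median 0.91, 1070 to 1280 TPM in MI and 372 to 421 TPM in sham). Pf4 alone averaged 1120 TPM in MI and 378 TPM in sham, so it made up most of the platelet sum in both groups. The part of these cell types in the results was not tested, and in such bulk samples fewer cells of a type and less RNA per cell cannot be told apart.

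Among the 7 S1P genes, 4 were higher in MI (Sgpl1, Sphk1, S1pr2 and Sphk2) and 3 were lower (S1pr1, Spns2 and S1pr3). All 7 were called by edgeR (quasi-likelihood test, adjusted p below 0.05 over all 13370 genes tested). Calls were common in these libraries: 73.3% of all genes tested were called, 36.4% higher and 36.9% lower in MI. Nor did the TPM of the 2 groups overlap at any member, which held for 75.6% of all genes tested. The median log2 fold change of the members was 0.84, against -0.01 over all genes tested. The largest change, that of Sgpl1, lay at percentile 95.8 of the fold changes of all genes tested, and Spns2, with the largest fall, at percentile 15.5.

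**Figure D1:**
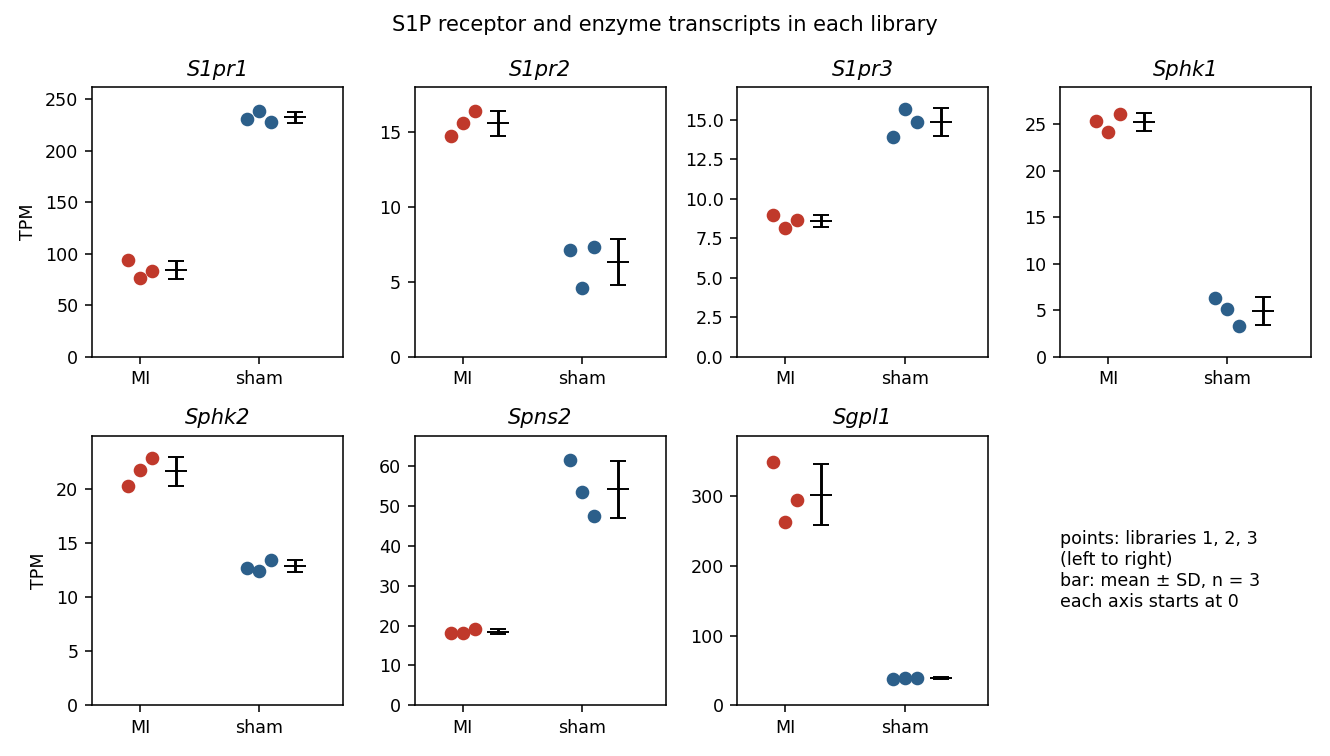
TPM of each of the 7 S1P genes in each library (points, libraries 1 to 3 from left to right), with the mean and SD of 3 libraries beside them; every axis starts at 0. The MI points lie above all sham points for S1pr2, Sphk1, Sphk2 and Sgpl1 and below them for S1pr1, S1pr3 and Spns2.

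S1pr1 was by far the most abundant receptor transcript in both groups and was lower after MI. It had 94.1, 76.3 and 82.8 TPM in the MI libraries, against 231, 239 and 229 TPM in the sham libraries. Every MI library lay far below the lowest sham library. The fall was 2.47-fold (log2 fold change -1.31 ± 0.08, SE; adjusted p = 1.54e-08, edgeR's quasi-likelihood test). S1pr1 (Entrez 13609) occupies chromosome 3 from 115710433 to 115715055, minus strand, of GRCm38.p6, is protein coding like the other 6 members, and shares no exon base with another gene of the GENCODE M21 annotation.

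S1pr3 was the other receptor gene with a fall. It had 8.95, 8.15 and 8.64 TPM in MI libraries and 13.9, 15.7 and 14.9 TPM in sham libraries, with no overlap between the groups. The fall was 1.55-fold (log2 fold change -0.63 ± 0.11, SE; edgeR adjusted p = 2.22e-04), and the log2 fold change was -0.98 with libraries scaled to total counts. Its locus (Entrez 13610) is on chromosome 13 from 51408618 to 51422797, plus strand, and shares 1.01% of its exon bases with the opposite-strand gene Gm32834, which is not in the table, so reads from that stretch are uncertain.

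S1pr2 moved the other way. It had 14.8, 15.6 and 16.4 TPM in MI libraries, against 7.09, 4.57 and 7.34 TPM in sham libraries. Sham 2 was the lowest, and the sham values rest on only 26 to 44 counts per library, so they carry a larger counting error than the MI values with 429 to 525 counts. The rise was 2.70-fold (log2 fold change 1.43 ± 0.18, SE; edgeR adjusted p = 1.62e-05). S1pr2 (Entrez 14739) is on chromosome 9 from 20965952 to 20976793, minus strand. S1pr2 and S1pr1 share their ligand, and their transcripts moved in opposite directions in the same libraries.

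The receptor makeup therefore differed between the groups. Of the summed TPM of S1pr1 to S1pr5, S1pr1 made up 76.7 ± 2.05% in MI and 89.6 ± 0.363% in sham (SD, n = 3 each), while S1pr2 made up 14.3 ± 1.62% in MI and 2.45 ± 0.63% in sham. S1pr3 made up 7.82 ± 0.269% in MI and 5.71 ± 0.274% in sham, so its share was larger in MI although its level was lower. The summed receptor level was 110.0 ± 8.80 TPM in MI and 260.0 ± 4.95 TPM in sham. The ratio of S1pr1 to S1pr2 was 6.38, 4.90 and 5.06 in MI libraries and 32.6, 52.3 and 31.1 in sham libraries, a log2 difference of -2.80 (exact two-sided permutation p = 0.1, the minimum for 3 against 3). The ratio of S1pr1 to S1pr3 was 10.5, 9.36 and 9.58 in MI and 16.6, 15.2 and 15.4 in sham, a log2 difference of -0.68 (exact permutation p = 0.1). Both ratios were lower in every MI library than in any sham library, and a ratio within a library does not depend on how libraries are scaled. Over the 18 ratios tested in all, an exact p of 0.1 became 0.113 after Benjamini-Hochberg adjustment.

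**Figure D2:**
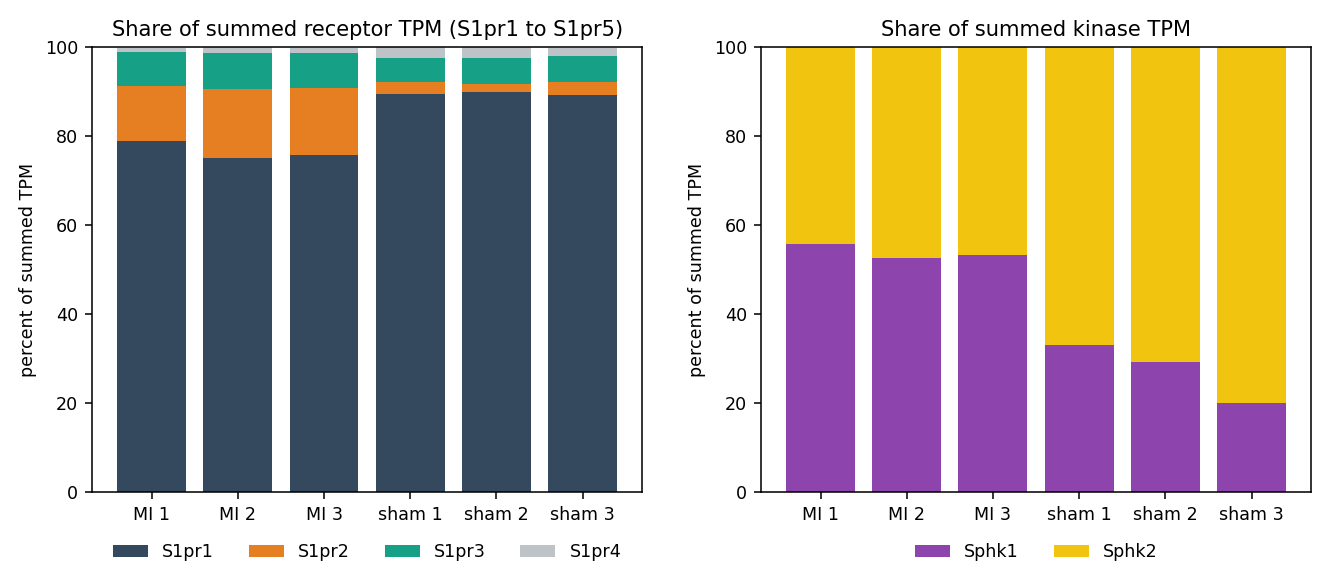
Stacked bars of each library show the share of summed TPM, in percent, held by each S1P receptor gene (left; S1pr5 is too low to be drawn) and by each sphingosine kinase gene (right). S1pr2 holds 12.4% to 15.4% of receptor TPM in MI libraries and 1.72% to 2.87% in sham libraries, and Sphk1 holds 52.7% to 55.7% of kinase TPM in MI libraries and 19.9% to 33.1% in sham libraries, with Sphk2 uncertain because it overlaps Dbp and Rpl18.

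The remaining receptor genes were minor. S1pr4, a receptor gene of blood and immune cells, had 1.12, 1.39 and 1.21 TPM in MI libraries and 6.18, 6.23 and 5.09 TPM in sham libraries and fell 4.12-fold (log2 fold change -2.04 ± 0.24, SE; edgeR adjusted p = 7.87e-06). S1pr5, known from natural killer cells and oligodendrocytes, had 3, 2 and 1 counts in MI and 0 counts in each sham library and did not pass the filter on low counts.

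Both sphingosine kinase genes rose. Sphk1 encodes the kinase that moves from the cytosol to the plasma membrane on stimulation. It had 25.4, 24.2 and 26.1 TPM in MI libraries, against 6.28, 5.13 and 3.33 TPM in sham libraries. The MI libraries were alike, while the sham libraries, with 14 to 25 counts each, spread more widely and sham 3 was lowest. The rise was 5.42-fold (log2 fold change 2.44 ± 0.17, SE; edgeR adjusted p = 8.58e-08). The locus (Entrez 20698) is on chromosome 11 from 116530836 to 116536675, plus strand, and shares 4.02% of its exon bases with the antisense gene Gm29292, which is not in the table. Reads from that stretch cannot be told apart without strand, so a small part of its reads is uncertain.

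Sphk2 encodes the kinase found in the nucleus and on internal membranes. It had 20.2, 21.7 and 22.9 TPM in MI libraries and 12.7, 12.4 and 13.4 TPM in sham libraries, and the groups did not overlap. The rise was 1.79-fold (log2 fold change 0.84 ± 0.12, SE; edgeR adjusted p = 6.09e-05), and it moved by over 1.5 times, to a log2 fold change of 0.49, when libraries were scaled to total counts. Sphk2 (Entrez 56632, chromosome 7 from 45709463 to 45718002, minus strand) shares 539 of its 4159 exon bases with Dbp and 373 with Rpl18, both on the opposite strand. Dbp, a clock-controlled transcription factor gene, averaged 5.67 ± 1.00 TPM in MI and 106 ± 7.19 TPM in sham, and the ribosomal protein gene Rpl18 averaged 1050 ± 145 TPM in MI and 1120 ± 33.4 TPM in sham (SD, n = 3 each). Whether reads were assigned by strand is not given in the sources used here, so reads of these genes and of Sphk2 cannot be told apart and its value is uncertain.

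The order of the 2 kinases by deposited TPM differed between the groups, with the limit that the Sphk2 value is uncertain through its overlap with Dbp and Rpl18. Sphk1 was 1.26, 1.11 and 1.14 times Sphk2 in MI libraries, against 0.496, 0.414 and 0.248 times in sham libraries, all on the TPM scale. The log2 ratio was 1.66 higher in MI (exact permutation p = 0.1), with Sphk1 above Sphk2 in all 3 MI libraries and below it in all 3 sham libraries. Together they summed to 46.8 ± 1.85 TPM in MI and 17.7 ± 1.11 TPM in sham.

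Spns2, the exporter gene, was lower after MI. It had 18.1, 18.1 and 19.2 TPM in MI libraries, against 61.6, 53.4 and 47.5 TPM in sham libraries. The MI values were nearly equal and even the lowest sham library lay far above them. The fall was 2.54-fold (log2 fold change -1.35 ± 0.11, SE; edgeR adjusted p = 2.75e-07), about the size of the fall of S1pr1. Spns2 (Entrez 216892) is on chromosome 11 from 72451638 to 72489976, minus strand. It shares 3.21% of its exon bases with Mybbp1a on the opposite strand, a gene that averaged 42.1 ± 1.76 TPM in MI and 19.1 ± 0.837 TPM in sham, so a small part of its reads is uncertain.

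Sgpl1, the lyase gene, showed the largest change of the 7. It had 349.6, 263 and 295 TPM in MI libraries, against 37.5, 39.2 and 39.9 TPM in sham libraries. The sham libraries were nearly identical, and MI 1 was the highest of the MI libraries. The rise was 8.74-fold (log2 fold change 3.13 ± 0.09, SE; edgeR adjusted p = 6.04e-11) on 12484 to 14629 counts per MI library and 302 to 324 per sham library. Sgpl1 (Entrez 20397) is on chromosome 10 from 61098642 to 61147684, minus strand, and shares no exon base with another annotated gene.

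Sgpl1 transcripts outnumbered those of Sphk1 in every library. The ratio of Sphk1 to Sgpl1 was 0.0727, 0.0918 and 0.0885 in MI libraries and 0.168, 0.131 and 0.0835 in sham libraries. The groups overlapped because of sham 3, and the log2 difference of -0.54 did not exceed the spread between replicates (exact permutation p = 0.3). It was -0.82 without sham 3 and -0.32 without sham 1. A difference between the rises of the kinase and of the lyase was thus not resolved, with only 14 to 25 Sphk1 counts in each sham library.

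**Figure D3:**
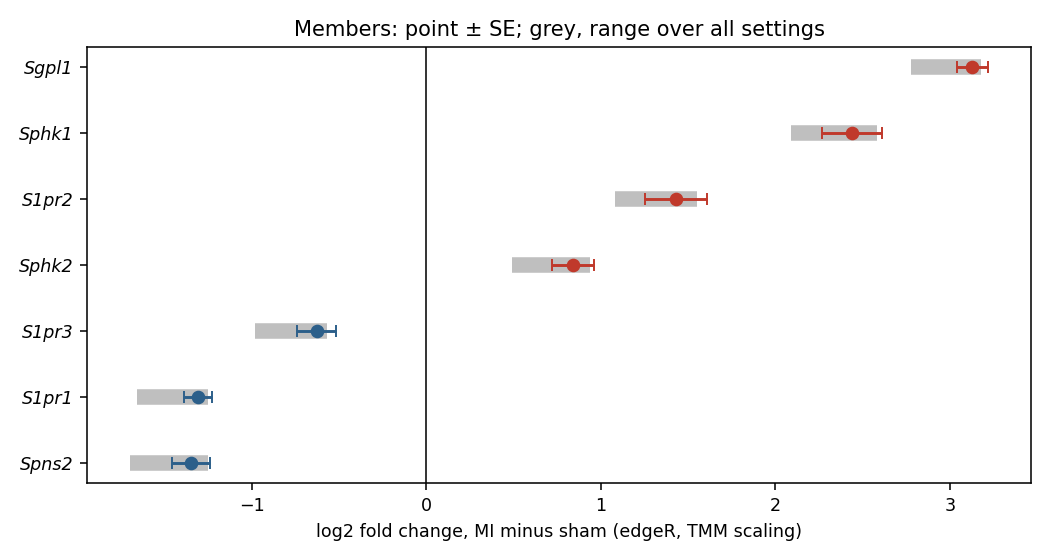
Log2 fold change of each S1P gene, MI minus sham, from edgeR with TMM scaling (point, with SE as the bar), over the range of that value in all 16 settings (grey). No range crosses 0, and Sphk2 and S1pr3 lie closest to it, reaching 0.49 and -0.57.

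The order of the 7 transcripts by mean TPM differed between the groups. In MI it ran Sgpl1 (303), S1pr1 (84.4), Sphk1 (25.2), Sphk2 (21.6), Spns2 (18.5), S1pr2 (15.6) and S1pr3 (8.58). In sham it ran S1pr1 (233), Spns2 (54.2), Sgpl1 (38.8), S1pr3 (14.8), Sphk2 (12.8), S1pr2 (6.33) and Sphk1 (4.91). Neighbours in these orders had separate ranges over the 3 libraries except S1pr2 and Sphk1 in sham, which overlapped. Sphk1 thus ranked above Sphk2 and Spns2 in MI and last in sham, while S1pr3 ranked last in MI and above both kinases in sham.

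Set against the endothelial transcripts of the same library, the falls of S1pr1, Spns2 and S1pr3 were smaller than those of the endothelial genes. Relative to the mean log2 TPM of the 18 pan-endothelial genes, S1pr1 stood at 0.47 ± 0.15 in MI and -0.43 ± 0.05 in sham, a difference of 0.90. Spns2 stood at -1.72 ± 0.05 in MI and -2.54 ± 0.16 in sham, 0.82 higher in MI. S1pr3 stood at -2.83 ± 0.07 in MI and -4.40 ± 0.11 in sham, 1.58 higher in MI (SD, n = 3 each). For all 3 genes every MI library lay above every sham library, so their direction on this scale was opposite to that on the scale of all transcripts. The 4 genes that rose were higher on this scale as well, by 3.12 for Sphk2, 3.69 for S1pr2, 4.77 for Sphk1 and 5.32 for Sgpl1. The exact permutation p was 0.1 for each of the 7.

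Against macrophage and monocyte transcripts, a comparison added after seeing the data, most of the genes were lower in MI. Relative to the mean log2 TPM of the 15 genes of that list, 5 of the 7 were lower in MI, by -3.99 for Spns2, -3.91 for S1pr1, -3.23 for S1pr3, -1.69 for Sphk2 and -1.12 for S1pr2 (exact permutation p = 0.1 each). Sphk1 stood at -3.60 ± 0.11 in MI and -3.56 ± 0.43 in sham, and the difference of -0.04 was within the spread between replicates (exact permutation p = 0.8). Sgpl1 stood at -0.02 ± 0.08 in MI and -0.53 ± 0.08 in sham and was 0.51 higher in MI (exact permutation p = 0.1). Sgpl1 was the one member that was higher in MI relative to both lists in every library. The cells that carried each transcript are not resolved by these data.

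**Figure D4:**
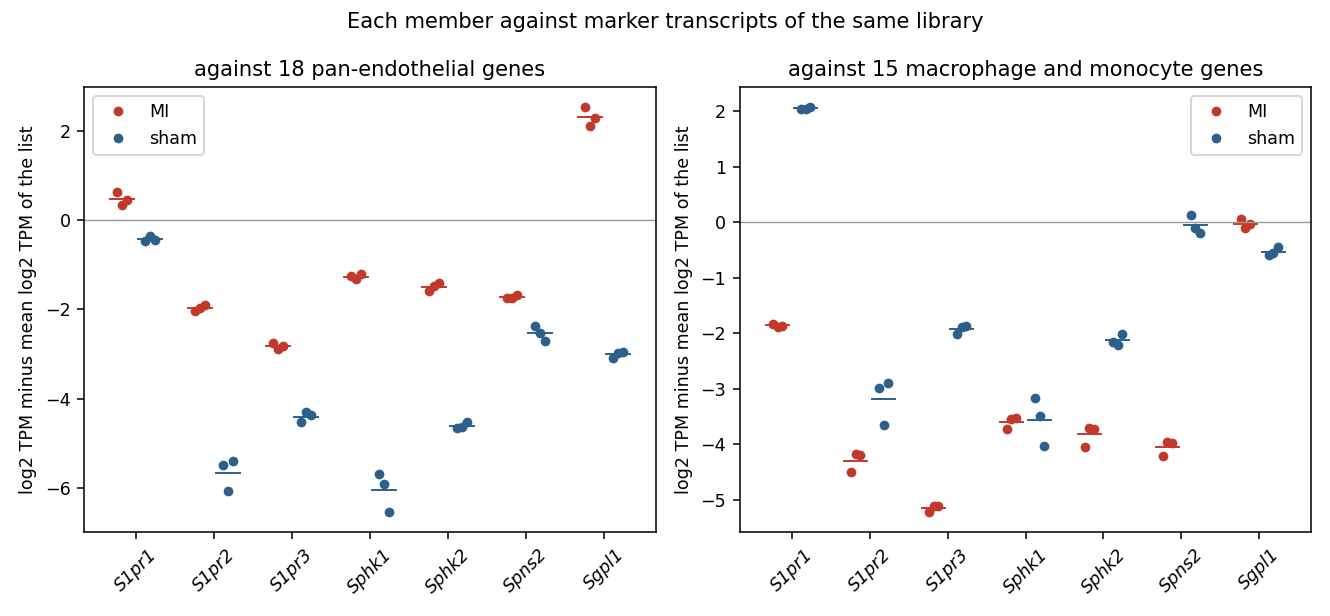
Log2 TPM of each S1P gene minus the mean log2 TPM of 18 pan-endothelial genes (left) or of 15 macrophage and monocyte genes (right), for each MI and sham library (points) with group means (lines). Against the endothelial genes all 7 were higher in MI; against the macrophage genes only Sgpl1 was, and the 2 groups overlapped at Sphk1.

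The other genes of the pathway were read from 7 lists that hold 70 symbols, of which 68 were in the table and 66 were tested. Of the 66, 36 rose, 21 fell and 9 did not pass (median log2 fold change 0.43, against -0.01 over all genes tested). Over all genes tested 73.3% were called, 36.4% higher and 36.9% lower in MI. The same shares are the background for each list below. With libraries scaled to total counts 25 rose and 24 fell. Each list below moved in libraries where pan-endothelial (18 of 18), cardiomyocyte (9 of 9), mural (10 of 10) and red blood cell (5 of 5) markers fell and macrophage (14 of 15) and neutrophil (8 of 9) markers rose, with the medians and summed levels given above; their part was not tested.

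Among phosphatases that act on S1P or related lipids, 1 of 5 tested rose and 3 fell (median -1.65). Plpp3, a surface lipid phosphatase of endothelial cells, had 70.5, 55.5 and 62.8 TPM in MI libraries and 227, 222 and 212 TPM in sham libraries and fell 3.14-fold. Plpp1 fell 5.05-fold, to 38.9 ± 1.23 TPM in MI, against 220 ± 8.97 TPM in sham. Plpp2 rose 5.42-fold, from a lower level, with 12.7 ± 0.773 TPM in MI and 2.65 ± 0.478 TPM in sham. Plpp1 and Plpp3 thus moved opposite to Sgpl1 (edgeR adjusted p = 3.34e-09 for Plpp3, 4.13e-10 for Plpp1 and 1.96e-06 for Plpp2). The S1P phosphatase gene Sgpp1 was not called (log2 fold change -0.25, edgeR adjusted p = 0.135). The remaining fall was that of Sgpp2, at very low levels. It had 0.22, 0.12 and 0.06 TPM in MI libraries and 0.65, 0.34 and 0.77 TPM in sham libraries.

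Of the carriers and further receptors, 1 of 5 tested rose and 2 fell (median 0.26). The transporter gene Abcc1, whose product can export S1P, rose 6.30-fold, with 58.4 ± 6.66 TPM in MI and 10.6 ± 0.752 TPM in sham. Abcg2, another transporter gene, fell 5.19-fold, with 25.9 ± 3.86 TPM in MI and 155 ± 10.7 TPM in sham. Abcc1 thus moved opposite to the exporter gene Spns2, and Abcg2 moved in the same direction as Spns2. The S1P chaperone gene Apom did not pass the filter on low counts.

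Genes of ceramide and sphingosine metabolism, some of which release sphingosine and others of which use it or ceramide, went both ways, with 9 rises and 7 falls among 17 tested (median 0.97). Sgms2, a sphingomyelin synthase gene, had 62.8, 40.3 and 45.1 TPM in MI libraries and 1.60, 1.17 and 1.34 TPM in sham libraries and rose 41.0-fold (log2 fold change 5.36 ± 0.19, SE; edgeR adjusted p = 2.42e-10). The ceramide synthase genes split: Cers6 rose 12.6-fold, with 22.4 ± 4.70 TPM in MI and 1.96 ± 0.67 TPM in sham, while Cers4 fell 5.06-fold, with 3.88 ± 0.358 TPM in MI and 22.8 ± 2.31 TPM in sham. Acer2, a Golgi ceramidase gene that releases sphingosine, fell 2.65-fold, with 16.9 ± 2.03 TPM in MI and 51.8 ± 1.94 TPM in sham. The other ceramidase genes of the list went both ways: Asah1 rose 2.09-fold and Acer3 2.66-fold, while Asah2 fell 1.72-fold. Asah1 was the most abundant of these, with 459, 325 and 359 TPM in MI libraries and 210, 200 and 196 TPM in sham libraries.

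Genes of de novo synthesis showed 4 rises and 2 falls among 8 tested (median 0.35). Rtn4, which encodes Nogo proteins including an endothelial brake on the first enzyme of the route, rose 2.68-fold, with 263 ± 26.9 TPM in MI and 113 ± 2.15 TPM in sham. Ormdl3, one of the ORMDL inhibitors of that enzyme, fell 2.25-fold, with 21.5 ± 1.11 TPM in MI and 54.2 ± 6.21 TPM in sham, and its relative Ormdl1 rose 1.90-fold (log2 fold change 0.93, or 0.58 with libraries scaled to total counts). Kdsr, the reductase of the next step, fell 1.45-fold (edgeR adjusted p = 0.00311), a call lost with limma on log2(TPM + 1), and its log2 fold change of -0.54 became -0.89 under total-count scaling. After the lyase, Aldh3a2, which oxidises the aldehyde that the lyase releases, fell 1.82-fold, with 30.1 ± 2.67 TPM in MI and 60.5 ± 5.10 TPM in sham, opposite to Sgpl1. Of the 4 genes of that step 2 rose (Acsl4 1.81-fold and Tecr 1.39-fold) and 1 fell (median 0.21). Under total-count scaling the rise of Tecr was not called, and the log2 fold change of Acsl4 was 0.51 instead of 0.86.

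Of 15 genes of the G proteins and effectors below the receptors, 10 rose and 3 fell (median 0.40). Gna13, which encodes a G protein alpha subunit used by S1PR2, rose 4.62-fold, with 271 ± 12.6 TPM in MI and 66.5 ± 3.10 TPM in sham. Gna11 fell 4.31-fold, with 16.8 ± 1.32 TPM in MI and 81.4 ± 3.35 TPM in sham. Gnai1, one of the inhibitory alpha subunits used by S1PR1, fell 3.83-fold at a low level, with 1.38 ± 0.752 TPM in MI and 5.85 ± 1.33 TPM in sham. The far more abundant inhibitory subunit genes Gnai2 and Gnai3 rose slightly, by 1.25-fold and 1.32-fold (edgeR adjusted p = 0.00358 and 0.0051). Gnai2 had 652 to 688 TPM in MI and 584 to 630 TPM in sham. Gnai3 had 107 to 163 TPM in MI and 110 to 111 TPM in sham, so the groups overlapped on that scale. Tiam1, an activator of Rac, rose 8.94-fold, with 5.71 ± 0.856 TPM in MI and 0.777 ± 0.369 TPM in sham; its log2 fold change was 3.16, or 1.93 on the log2(TPM + 1) scale.

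All 12 regulators of the receptors and kinases were called, 9 higher and 3 lower (median 0.67), in libraries where 73.3% of all genes tested were called. Cd69, a leukocyte activation antigen known to pull S1PR1 off the surface of lymphocytes, had 69.0, 59.1 and 60.0 TPM in MI libraries and 2.02, 1.85 and 2.31 TPM in sham libraries. It rose 33.7-fold (log2 fold change 5.07 ± 0.17, SE; edgeR adjusted p = 1.43e-10). Klf2, the transcription factor gene named above for its action on S1pr1, had 73.5, 80.8 and 77.4 TPM in MI libraries and 267, 266 and 279 TPM in sham libraries. It fell 3.12-fold (log2 fold change -1.64 ± 0.09, SE; edgeR adjusted p = 1.46e-08), and its relative Klf4 fell 1.86-fold. Arrb2, a beta-arrestin gene of receptor internalisation, rose 4.24-fold, with 217, 240.1 and 232 TPM in MI libraries and 62.6, 57.3 and 60.05 TPM in sham libraries. Lymphocyte markers were low in both groups, with summed levels of 15.1 to 18.4 TPM in MI and 12.7 to 18.3 TPM in sham over 10 genes, of which Cd3e was at 0 in MI and Cd3g and Nkg7 in sham; 2 of the 6 tested rose and 2 fell.

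**Figure D5:**
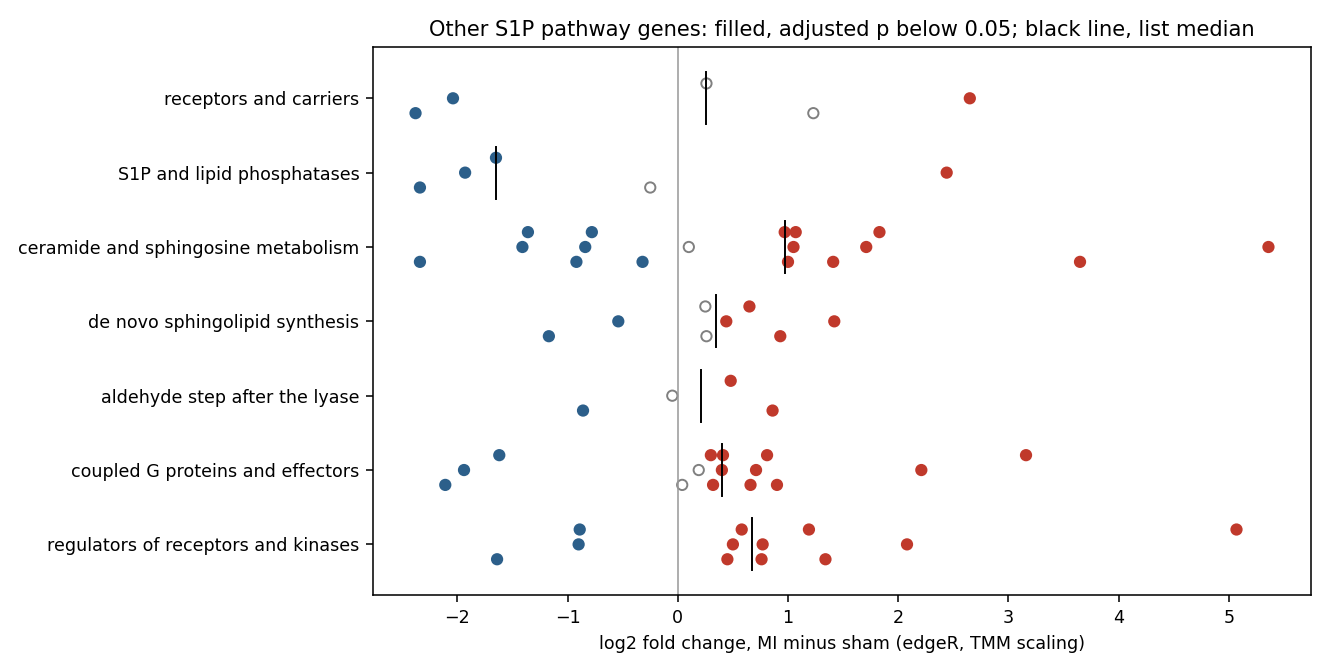
Log2 fold change, MI minus sham, of the 66 tested genes of the S1P pathway outside the 7 members, by list (rows). Filled points passed an adjusted p of 0.05 in edgeR (red higher, blue lower in MI), open points did not, and the black line is the list median, which lies below 0 for the phosphatases alone.

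The genes whose profile over the 6 libraries was most like that of each member were found among 9701 genes by the root mean square difference of centred log2(TPM + 1). For S1pr1 they were Cyb5d1 (0.03) and Tfdp2 (0.032), for S1pr3 Acvr1 (0.013) and Cpped1 (0.026), and for Spns2 Trappc5 (0.052) and Atoh8 (0.055). For S1pr2 they were Impa2 (0.076) and Tom1 (0.081), for Sphk1 Ankrd33b (0.11) and Trim13 (0.118), for Sphk2 Tsc22d4 (0.026) and Supt5 (0.028), and for Sgpl1 Top2a (0.041) and Lilr4b (0.045). Top2a, a topoisomerase of dividing cells, had 37.7 TPM in MI and 3.94 TPM in sham on average, and Lilr4b, a myeloid inhibitory receptor gene, 1550 TPM in MI and 203 TPM in sham. These are descriptions of 2 groups of 3 libraries, in which the difference between the groups sets most of the likeness.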

How the data were processed

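Estimated counts, TPM, FPKM and a signal column (scaled counts) were deposited by the authors, from BGISEQ-500 reads mapped to GRCm38 per the labels (GRCm38.p6 per the submitters' processing notes). Aligner, counting program, annotation, strand handling and filters: not given in the sources used here. Agilent Feature Extraction 9.1, software for microarrays, is listed in the submitters' processing notes; what it did for sequencing data is not said. Levels and ratios used the deposited TPM, implied lengths the FPKM; the signal column and group averages were left out.

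Rounded counts went into edgeR 4.0.16 (R 4.3.3) with filterByExpr (13370 of 17714 genes kept), TMM and a quasi-likelihood fit on group alone. Calls needed a Benjamini-Hochberg adjusted p below 0.05, two-sided; positive log2 fold changes mean higher in MI, and SE was obtained from the F statistic. Ratios of log2 TPM had exact two-sided permutation tests (scipy 1.17.1). Alternatives used DESeq2 1.42.0, limma 3.58.1, other scalings and filters, thinned MI libraries, a replicate block and left-out libraries. Positions and sequences are from RefSeq, exon overlaps from GENCODE M21. MI against sham data were simulated for 13370 genes, of which 200 were changed, with a common dispersion for all genes. In them 80% of 2-fold and 48% of 1.5-fold changes were recovered, and 6 of 134 calls were false. In the real libraries 73.3% of genes were called, so these rates need not hold there.

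Members and lists were chosen with earlier results of these data known. Named pathway genes are the 2 largest called rises and falls per list with at least 5 CPM in the higher group; profile neighbours, the 2 nearest genes with a mean of 5 TPM. Dbp, Rpl18, Mybbp1a, Pdpn, Cd3e, Cd3g, Nkg7, S1pr5, Apom, Gnai2, Gnai3, Sgpp1, Sgpp2, Asah1, Asah2 and Acer3 were named after their values were seen. Sptlc3 and Sptssb did not match the table.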

Additional observations from a re-analysis of the deposited data

How the results depend on the processing

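The 7 members kept their direction and their call in all 105 recomputed values (15 alternatives each), with adjusted p-values up to 0.00304; 14 of the alternatives were fixed in advance and 1, leaving out LOC118568718 (3.40% to 3.97% of sham counts), was added after seeing the data. Over all alternatives the counts of called genes ran from 8582 to 10177, against 9801, those of pathway genes from 49 to 60, against 57, and those of members stayed at 7. Scaling to total counts lowered the median log2 fold change of all genes to -0.36, from -0.01, and calls higher in MI to 34.9%, from 49.6%; the members' log2 fold changes moved with it (S1pr1 to -1.66, Sgpl1 to 2.78), and none changed direction. MI libraries thinned to the sham depth gave 8582 called genes and log2 fold changes of -1.31 for S1pr1 and 3.06 for Sgpl1. Without MI 1 the members' log2 fold changes moved by 0.11 at most (S1pr2, to 1.54), and 60 pathway genes were called. Leaving out single libraries gave 8596 to 9925 called genes. Of 375 recomputed values of the 25 named pathway genes, 373 kept call and direction; Kdsr (-0.38 with limma on TPM) and Tecr (0.12 with total-count scaling) lost theirs, and the cause was not tested. The difference of Sphk1 relative to the macrophage list changed sign without MI 1 (0.03), without sham 1 (0.16) and without sham 2 (0.00), and ran from -0.27 to 0.16 when single libraries were left out. The planned ratios kept their direction under every alternative run. Deviations of same-numbered libraries correlated at -0.068, -0.037 and 0.000, so no pairing by number was seen. With so few libraries and shallow sham libraries this check could miss a pairing. With the replicate number as a block 9635 genes and all 7 members were called. Sham depth limits S1pr2 and Sphk1, with as few as 26 and 14 counts in a library.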

Other observations

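The authors' counts and FPKM imply an effective length for each gene and library, the length by which the counts were scaled. It can be shorter than the transcript itself. For S1pr1 it was 2980 bases in all 6 libraries, and for S1pr3 it was 4432 to 4439 bases in MI and 4433 to 4434 bases in sham. For Sgpl1 it was 4003 to 4007 bases in MI and 3926 to 4049 bases in sham, and for Spns2 3037 to 3119 bases in MI and 2938 to 3087 bases in sham. For S1pr2 it was 2781 to 2784 bases in MI and 2762 to 2890 bases in sham, and for Sphk2 2706 to 2842 bases in MI and 2849 to 3025 bases in sham. For Sphk1 it was 1972 to 1985 bases in MI and 1787 to 2378 bases in sham, where the counts were fewest. The ranges of the groups overlapped or coincided at 6 members. At Sphk2 they were only just separate, with 2842 bases as the highest MI value and 2849 as the lowest sham value. The sham values of Sphk2 rest on 73 to 82 counts per library.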
